A study of Mus musculus with 4 samples.

Results

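Cd34, Msln, Plac8 and Hopx are 4 of the 32285 genes counted in a single cell RNA-seq (scRNA-seq) study of mesenchymal progenitor cells (MPC). They were chosen by measured values of these libraries, since each was high in some H3R26C cells after 5-Azacitidine (5-Aza), so their levels are given as a description and carry no test. The cells were C3H10T1/2 (Clone 8), a mouse fibroblast-like MPC line, carrying a lentiviral H3.1 transgene under the EF1 promoter with an HA and FLAG tag, made from the human H3C2 cDNA and selected with puromycin. H3WT cells carried the unmutated transgene and H3R26C cells the same transgene with arginine 26 changed to cysteine, beside their own histone genes, and the tagged transgene itself cannot be read in these mouse counts. Cells of each genotype received the vehicle DMSO or the DNA methyltransferase inhibitor 5-Aza at 3 µM for 24 h, with collection of the 5-Aza cells at day 28. When DMSO cells were collected is not given in the sources used here, so treatment and time in culture cannot be told apart. Each of the 4 conditions has 1 library, so no difference between conditions was tested, and the 95% intervals cover counting error only.

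Barcodes with at least 5000 unique molecular identifiers (UMIs), at least 1500 genes and at most 20% mitochondrial UMIs were kept as cells. This left 3710 H3WT DMSO, 5993 H3WT 5-Aza, 4727 H3R26C DMSO and 7619 H3R26C 5-Aza cells, with 84060490 to 110712425 UMIs per library. The median was 13123 to 22420 UMIs per cell and was higher with DMSO than with 5-Aza. Pairs of libraries shared 24 to 58 cell barcodes, at most 1.11% of the smaller library. Levels are given as CPM, the UMIs of a gene summed over cells and scaled to all UMIs of these cells. For shares of cells with a UMI, a random 5000 UMIs of every cell were used (thinning), so that depth was equal.

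CD34 is a sialomucin of the cell surface that marks haematopoietic stem cells, endothelium and many resident fibroblast progenitors, while mesothelin (Msln) is a GPI-anchored surface protein of the mesothelium that binds MUC16. PLAC8 is a small cysteine-rich protein with reported roles in adipogenesis and in myeloid cells. HOPX is an atypical homeodomain protein that does not bind DNA itself and restrains serum response factor (SRF) in muscle cells.

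The genes lie at separate loci of the mouse genome (mm10; positions of GENCODE M21). Cd34 (ENSMUSG00000016494) spans bases 194938819 to 194961279 of chromosome 1 on the plus strand. Msln (ENSMUSG00000063011) spans 25748613 to 25754378 of chromosome 17 on the minus strand. Plac8 (ENSMUSG00000029322), from 100553725 to 100572245, and Hopx (ENSMUSG00000059325), from 77086988 to 77115121, are both on the minus strand of chromosome 5. Promoter windows, 250 bases before to 50 bases after an annotated start, were taken from RefSeq (GRCm38.p6) for 3 of the 4 genes. They are shown because 5-Aza acts on cytosine methylation, which in mammals is found mainly at CpG, so CpG is set in capitals:
Cd34, chr1:194938571-194938870, plus strand: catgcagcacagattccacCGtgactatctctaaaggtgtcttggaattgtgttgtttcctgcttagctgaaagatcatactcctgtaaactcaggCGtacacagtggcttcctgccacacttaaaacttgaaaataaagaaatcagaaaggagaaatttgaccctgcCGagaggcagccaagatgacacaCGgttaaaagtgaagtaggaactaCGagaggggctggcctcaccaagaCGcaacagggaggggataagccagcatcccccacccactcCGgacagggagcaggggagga
Plac8, chr5:100572156-100572455, minus strand: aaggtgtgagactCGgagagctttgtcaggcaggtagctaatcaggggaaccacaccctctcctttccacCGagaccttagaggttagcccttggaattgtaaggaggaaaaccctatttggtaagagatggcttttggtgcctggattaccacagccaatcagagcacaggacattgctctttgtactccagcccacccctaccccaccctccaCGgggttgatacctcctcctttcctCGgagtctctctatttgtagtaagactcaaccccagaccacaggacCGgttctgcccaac
Hopx, upstream start, chr5:77115074-77115373, minus strand: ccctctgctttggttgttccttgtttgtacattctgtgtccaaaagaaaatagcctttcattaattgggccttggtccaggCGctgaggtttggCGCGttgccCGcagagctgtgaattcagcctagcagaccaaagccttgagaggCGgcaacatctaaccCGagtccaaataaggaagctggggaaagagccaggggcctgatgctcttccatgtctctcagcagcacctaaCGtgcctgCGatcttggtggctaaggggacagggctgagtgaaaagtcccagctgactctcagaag
Hopx, internal start, chr5:77095218-77095517, minus strand: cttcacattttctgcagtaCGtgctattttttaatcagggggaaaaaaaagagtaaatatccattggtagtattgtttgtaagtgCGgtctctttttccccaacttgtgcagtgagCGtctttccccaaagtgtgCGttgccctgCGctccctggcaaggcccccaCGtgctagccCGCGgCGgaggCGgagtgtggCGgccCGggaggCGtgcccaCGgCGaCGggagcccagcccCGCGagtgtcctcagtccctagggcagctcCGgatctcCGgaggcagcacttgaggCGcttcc
The Cd34 window held 7 CpG, which is the median of the 32851 windows of 300 bases, and the Plac8 window held 5. The 2 starts of Hopx differed, with 8 CpG upstream and 21 at the internal start, where 24.8% of all windows held at least as many. A second Plac8 window, at chr5:100563047-100563346, held 9. No methylation was measured in these libraries, so these letters describe the sequence only.

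All 4 genes were low in both DMSO libraries and higher in both 5-Aza libraries, with the highest level of each in H3R26C 5-Aza. Cd34 was at 0.518 CPM (0.378 to 0.693) in H3WT DMSO and 0.595 (0.442 to 0.784) in H3R26C DMSO, and at 4.90 (95% interval 4.44 to 5.39) in H3WT 5-Aza and 16.6 (15.8 to 17.3) in H3R26C 5-Aza. Msln was close to absent without 5-Aza, with 2 UMIs (0.023 CPM) in H3WT DMSO and 4 (0.0476 CPM) in H3R26C DMSO, and stood at 1.22 CPM (0.997 to 1.48) in H3WT 5-Aza and 32.8 CPM (31.7 to 33.9) in H3R26C 5-Aza. For Cd34 and Msln the DMSO intervals of the genotypes overlapped, whereas the 5-Aza intervals did not. Plac8 was at 1.98 CPM (1.70 to 2.30) in H3WT DMSO and 3.13 (2.76 to 3.53) in H3R26C DMSO, against 116 (114 to 118) in H3WT 5-Aza and 376 (372 to 379) in H3R26C 5-Aza. Hopx was at 4.03 CPM (3.62 to 4.47) in H3WT DMSO and 9.03 (8.40 to 9.70) in H3R26C DMSO, against 25.3 (24.2 to 26.4) in H3WT 5-Aza and 222 (219 to 225) in H3R26C 5-Aza. The intervals of Plac8 and of Hopx did not overlap between any of the 4 libraries, and H3R26C was above H3WT under both treatments.

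**Figure D1:**
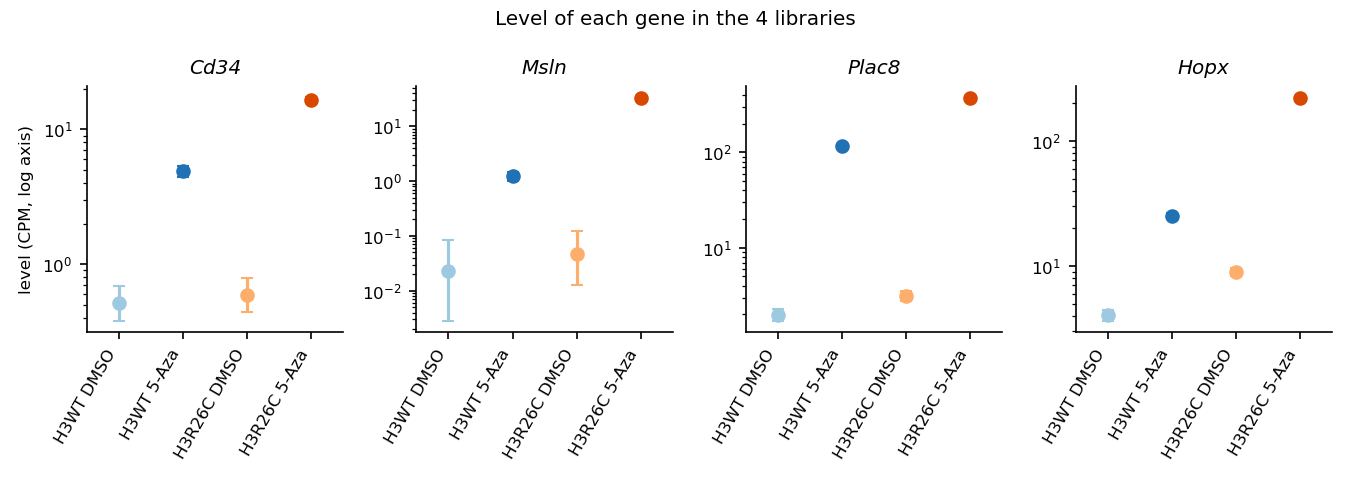
Level of Cd34, Msln, Plac8 and Hopx (CPM, a separate log axis for each gene) in the 4 libraries; points are library levels and bars exact 95% Poisson intervals of the UMI count. In each panel the highest point is H3R26C 5-Aza, at 16.6, 32.8, 376 and 222 CPM, and both DMSO points lie below both 5-Aza points.

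The genotypes differed most for Msln and Hopx. On the log2(CPM + 1) scale, H3R26C 5-Aza exceeded H3WT 5-Aza by 1.57 (1.39 to 1.75) for Cd34, 3.93 (3.72 to 4.13) for Msln, 1.69 (1.65 to 1.73) for Plac8 and 3.08 (3.01 to 3.16) for Hopx. Of 12669 genes that averaged 1 CPM or more over these libraries, 4.79% were at least 2-fold higher in H3R26C 5-Aza. With the gene itself included, 5 genes lay as far up as Msln, 22 as Hopx, 195 as Plac8 and 235 as Cd34. Since the genes were chosen on this contrast, nothing is read from these ranks or from all 4 being at least 2-fold higher. In DMSO the same difference was 0.07 for Cd34, 0.03 for Msln, 0.47 (0.19 to 0.75) for Plac8 and 0.996 (0.78 to 1.21) for Hopx, just under the 2-fold that 1.82% of 12052 genes reached on this scale. From DMSO to 5-Aza, H3WT cells differed by 1.96 for Cd34, 1.12 for Msln, 5.29 for Plac8 and 2.38 for Hopx, where 4.26% of genes were at least 2-fold higher. In H3R26C cells these differences were 3.46, 5.01, 6.51 and 4.47 in the same order, where 8.04% of genes were at least 2-fold higher. Each 5-Aza value shares a control or a treated library with another of these comparisons. In pooled cells, a gene present in more cells and a gene present at more copies per cell give the same level, so the cells were examined next.

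After thinning, Cd34 was found in 5.51% (5.01 to 6.05) of H3R26C 5-Aza cells and 1.85% (1.53 to 2.23) of H3WT 5-Aza cells. Msln was found in 7.67% (7.08 to 8.29) and 0.350% (0.217 to 0.535), Plac8 in 53.5% (52.4 to 54.6) and 27.2% (26 to 28.3), and Hopx in 43.6% (42.5 to 44.8) and 8.86% (8.15 to 9.61). Cd34 and Msln were thus held by a minority and Plac8 and Hopx by a large share of the H3R26C 5-Aza cells. Without thinning the H3R26C 5-Aza shares were 10.3% for Cd34, 14.5% for Msln, 66.8% for Plac8 and 59.9% for Hopx. Msln had a UMI in 0 thinned cells of either DMSO library, where 3 cells would be 0.0809% of H3WT DMSO and 0.0635% of H3R26C DMSO, and before thinning in 0.0539% and 0.0846% of cells. These shares are of cells with a UMI and set no limit on cells that express the gene.

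The genes also differed in how their UMIs were spread over cells. Msln reached 45 UMIs in a cell, Cd34 16, Plac8 103 and Hopx 50, all in H3R26C 5-Aza. In that library 78 cells held at least 10 UMIs of Msln and contributed 36.1% of its UMIs, and 9 cells held at least 10 of Cd34. The top 1% of cells, 76 in number, held 35.6% of Msln UMIs, 28% of Cd34, 10.7% of Plac8 and 8.30% of Hopx. This share also depends on the level of a gene and is larger for scarce genes, so that it is no measure of restriction to a cell type. H3R26C 5-Aza cells contributed 97.1% of all Msln UMIs of the series, 88.3% of Hopx, 80.3% of Plac8 and 78.3% of Cd34.

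DMSO cells with many UMIs were rare and held Plac8 or Hopx. In H3R26C DMSO, 10 cells had at least 5 UMIs of Plac8 and 13 had at least 5 of Hopx, with highest values of 16 and 18. In H3WT DMSO the numbers were 8 and 5, with highest values of 12 and 13. No cell was high for both, where the product gave 0.0108 cells in H3WT DMSO and 0.0275 in H3R26C DMSO, so nothing is read from it. After thinning, 5 H3R26C DMSO cells held both genes against 2.48 (ratio 2.02, 0.655 to 4.71). Of the high cells, 1 of the 8 Plac8 cells of H3WT DMSO had a barcode that was also seen in a 5-Aza library.

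Whether the 4 genes mark the same H3R26C 5-Aza cells was examined with the 6 pairs. The number of cells with both genes of a pair was divided by the number given by the product of the 2 shares, so that 1 is the value for genes held independently. The interval covers the count of cells with both genes. Cd34 and Msln had the highest ratio, with 130 cells holding both, against 32.2 from the product, a ratio of 4.04 (3.38 to 4.79). With the product taken within the clusters of similar cells, the ratio was 4 at a resolution of 0.2 but 1.48 at 0.5, with 130 cells against 88.1. Msln was present in 31.0% (26.6 to 35.6) of the Cd34 cells and in 6.31% (5.76 to 6.89) of the others. Conversely, Cd34 was present in 22.3% (18.9 to 25.9) of the Msln cells and in 4.12% (3.67 to 4.61) of the others. Most cells with either gene therefore lacked a UMI of the other, with 290 holding Cd34 without Msln and 454 holding Msln without Cd34.

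The ratios of Hopx with both surface genes were nearer to 1 and depended on the cells included. The ratio was 1.44 (1.27 to 1.62) for Cd34 and Hopx and 1.5 (1.35 to 1.65) for Msln and Hopx, and Hopx was present in 65.2% of Msln cells against 41.8% of the others. Within clusters at a resolution of 0.5 these ratios were 1.13 and 1.08, and without the cluster led by Crabp1 and Slpi that of Cd34 and Hopx was on the other side of 1, at 0.889 with 49 cells. Plac8 differed between the surface genes after thinning, since it was present in 64.8% (60 to 69.3) of Cd34 cells, above the 52.8% of the others, but in 45.5% (41.5 to 49.7) of Msln cells, below the 54.1% of the others. The ratios were 1.21 (1.07 to 1.36) for Cd34 and Plac8 and 0.852 (0.754 to 0.958) for Msln and Plac8. Without thinning Msln and Plac8 had 0.963 (0.897 to 1.03), and from 2 UMIs on 0.991, so that the departure from 1 was not held there. Plac8 and Hopx, the most widespread genes, had a ratio nearer to 1, with 1922 cells holding both, at 1.08 (1.04 to 1.12). Cells with Msln were deeper before thinning than cells without it, with medians of 16436 and 12969 UMIs, and cells with Cd34 had 14596.5 against 13061. The part of depth in these ratios was not tested beyond the thinning, and without the 10% of cells with most UMIs the ratio of Cd34 and Msln was 4.50.

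The ratio of a pair cannot exceed the inverse of its larger share, so that pairs with the widespread Plac8 or Hopx are bound to lie nearer to 1 and the order of the pairs is partly set by abundance. At higher thresholds the ratio of Cd34 and Msln was larger. The threshold of 5 UMIs was set after the values were seen. Among cells with at least 5 UMIs before thinning, 42 were high for both Cd34 and Msln, against 2.37 from the product, which was 49.4% of the 85 Cd34-high cells and 19.8% of the 212 Msln-high cells. The ratio at this threshold was 17.8, and it was 5.49 from 2 UMIs on. Of the 85 Cd34-high cells, 68.2% were Hopx-high, more than were Msln-high. However, 1928 cells of the library were Hopx-high against 212 Msln-high, and the ratio of Cd34 and Hopx was 2.70. Plac8 and Hopx had a ratio of 1.38 at 5 UMIs, with 958 cells high for both. Cd34 and Plac8 turned to the other side of 1, at 0.946, with 29 cells against 30.7 from the product.

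**Figure D2:**
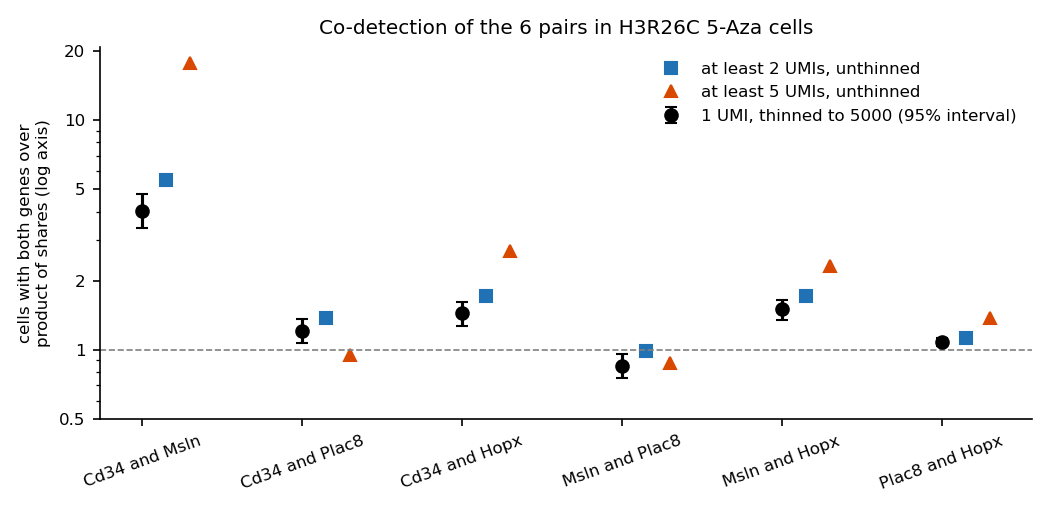
Cells holding both genes of a pair over the number from the product of the single shares (log axis) in H3R26C 5-Aza cells, for cells thinned to 5000 UMIs with a 95% interval and for unthinned cells with at least 2 or at least 5 UMIs of each gene; the dashed line marks 1. Cd34 and Msln lie highest at each threshold, at 4.04, 5.49 and 17.8, and Msln and Plac8 lie below 1 at each; the highest value possible is lower for pairs with Plac8 or Hopx.

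The combinations of all 4 genes were counted next. Of the 16 combinations, cells with none numbered 1965 (25.8%), cells with Plac8 alone 1993 (26.2%), cells with Plac8 and Hopx 1623 (21.3%) and cells with Hopx alone 1164 (15.3%). All 4 genes were found together in 63 cells, or 0.827% (0.636 to 1.06), where the product of the 4 shares gave 7.51. Cd34, Msln and Hopx without Plac8 were found in 44 cells against 6.53. By contrast, Cd34 and Msln without Plac8 and Hopx were found in 7 cells against 8.44, and with Plac8 but without Hopx in 16 against 9.71. Against this product, most of the excess of Cd34 with Msln lay in cells that also held Hopx. However, the product takes all 4 genes as independent, and Hopx had ratios of 1.44 with Cd34 and 1.5 with Msln. These counts therefore cannot show whether the co-detection of Cd34 and Msln depended on Hopx, which was not tested. By ratio, the combination furthest below its product was Msln with Plac8 alone, in 68 cells against 166.

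**Figure D3:**
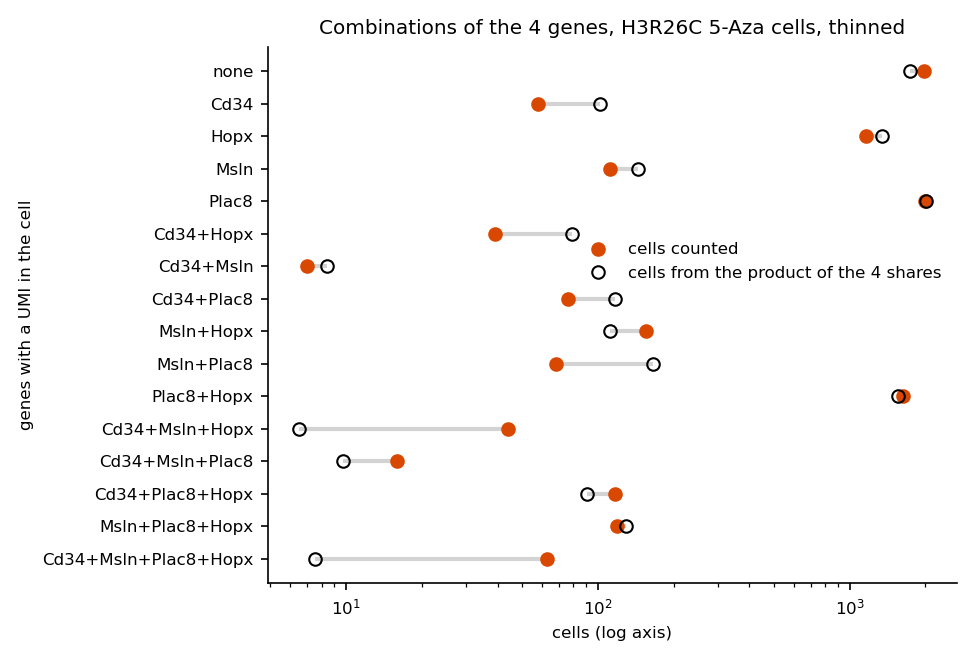
Number of H3R26C 5-Aza cells (log axis) with each of the 16 combinations of the 4 genes after thinning; filled points are counted cells and open points the number from the product of the 4 shares. The filled point lies far to the right for all 4 genes, 63 against 7.51, and for Cd34, Msln and Hopx, 44 against 6.53, and far to the left for Msln with Plac8, 68 against 166.

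In H3WT 5-Aza the pairs could be read only in part. Plac8 and Hopx were together in 216 cells, a ratio of 1.5 (1.31 to 1.71), above the value in H3R26C 5-Aza. Plac8 was in 27.2% of H3WT and 53.5% of H3R26C 5-Aza cells, so the highest ratio possible was lower in H3R26C. The ratios of these libraries are therefore not on a common scale. In H3WT 5-Aza the ratio of Cd34 and Plac8 was 1.03 (0.699 to 1.46). Cd34 and Hopx shared 6 cells against 9.83 from the product, a ratio of 0.61 (0.224 to 1.33), beside 1.44 (1.27 to 1.62) in H3R26C 5-Aza. Before thinning these ratios were 1.28 (0.951 to 1.68) and 1.33 (1.23 to 1.44), so the gap between the libraries was not held there. Cd34 and Msln shared 1 cell of the 111 and 21 that held each, with an interval of the ratio from 0.0651 to 14.3, so that a departure from 1 was not detectable after thinning. Before thinning, 7 H3WT 5-Aza cells held both surface genes against 2.11 from the product, a ratio of 3.32 (1.33 to 6.83), beside 2.89 (2.59 to 3.21) in H3R26C 5-Aza. The interval of the H3WT ratio thus held the H3R26C value, in far fewer H3WT cells. However, depth was not equal before thinning. The H3WT 5-Aza cells with Msln had a median of 20157 UMIs against 13117.5 in the others, and those with Cd34 had 15144 against 13102. An excess of co-detection in H3WT cells at equal depth is therefore not shown.

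The cells of all libraries were clustered after the study's methods, but with the 4 genes and the listed marker genes left out of the variable genes. Cluster values are descriptions, with no test. At a resolution of 0.2, the H3R26C 5-Aza cells included a cluster led by Crabp1 and Slpi (3843 cells), one led by the neurofilament gene Nefl and the keratin gene Krt8 (1181 cells) and one led by Cilp and Enpp2 (529 cells, all of this library). Plac8 and Hopx were both highest in the Cilp and Enpp2 cluster, at 1346 CPM (1320 to 1372) and 749 CPM (730 to 769). There 97.2% of thinned cells held Plac8 and 95.1% held Hopx, whereas Cd34 was at 3.83 CPM and Msln at 15.6 CPM, each below its library level. This cluster held 24.5% of the Plac8 UMIs and 23.1% of the Hopx UMIs of the library in 6.94% of its cells.

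The other large clusters held the genes in different proportions. The Nefl and Krt8 cluster had Hopx at 427 CPM (418 to 437) and Msln at 59.6 (56.1 to 63.3), above the library levels, but Plac8 at 99.5 (94.9 to 104) and Cd34 at 10.2 (8.79 to 11.8), below them. The Crabp1 and Slpi cluster had the highest Cd34 of this clustering, 23.6 CPM (22.3 to 24.9), with Msln at 35.7, Plac8 at 420 and Hopx at 176. A cluster led by Igfbp5 (518 cells) held Plac8 at 431 CPM but Msln at 2.36 and Hopx at 71.5. Plac8 and Hopx were thus each above the library level in some clusters where the other was below it.

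At the finer resolution of 0.5, but not at 0.2, a cluster of 356 cells appeared, 354 of them H3R26C 5-Aza, whose leading genes were Msln, Cd34, Slurp1 and Il1rl1 although Msln and Cd34 took no part in the clustering. It held Cd34 at 141 CPM (131 to 151), Msln at 262 (248 to 276), Plac8 at 419 (402 to 437) and Hopx at 488 (469 to 507). With 4.65% of the cells of the library it held 40.0% of the Cd34 UMIs and 37.6% of the Msln UMIs, but 10.3% of Hopx and 5.25% of Plac8. Of the 130 cells with Cd34 and Msln, 93 (71.5%) were in it, and of the 63 cells with all 4 genes, 54 (85.7%). Without these cells the ratio of Cd34 and Msln was 2.45, with 37 cells, and that of Cd34 and Hopx was 1.15.

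The same clustering set Plac8 apart in a group led by Slpi, Trf and Plac1 (217 H3R26C 5-Aza cells). Plac8 was at 1097 CPM (1060 to 1135) and Hopx at 226 (209 to 244) there, with Cd34 at 1.67 (0.542 to 3.89) and Msln at 1 (0.207 to 2.93). Levels above the library's were thus found for Plac8 and Hopx together, for Plac8 with little of the surface genes, for Hopx with Msln, and for all 4 genes, each in another cluster.

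**Figure D4:**
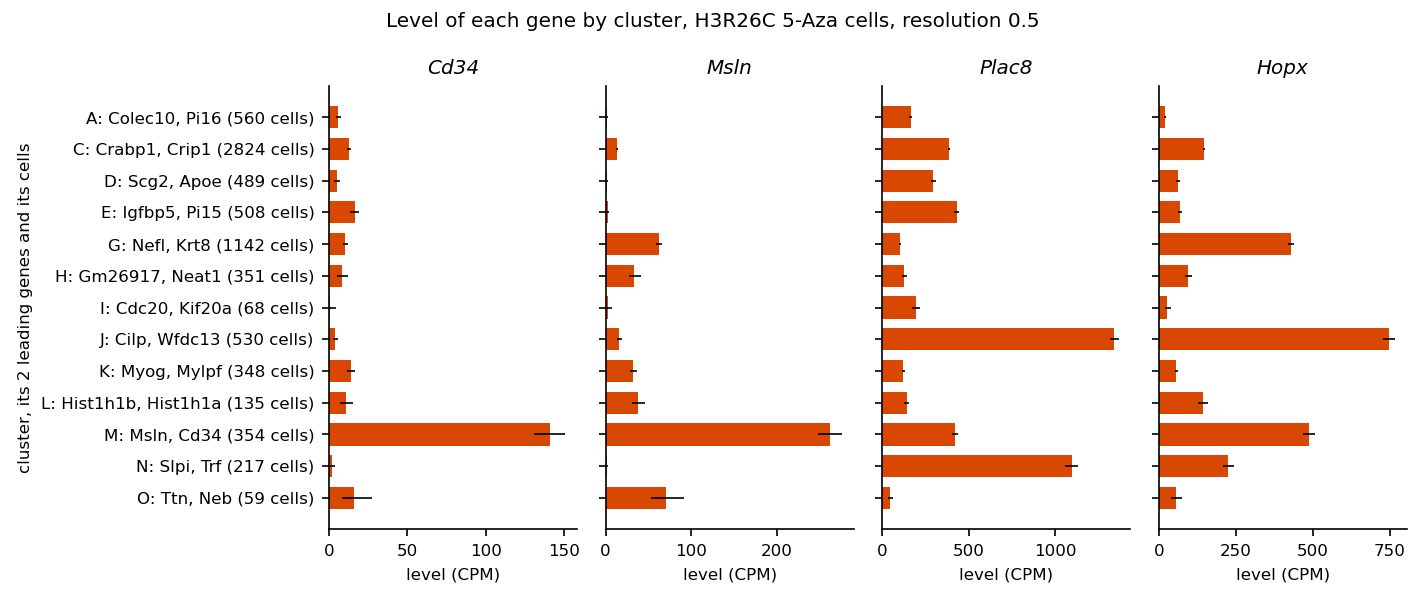
Level of each gene (CPM, linear axes from 0) in the H3R26C 5-Aza cells of each cluster with at least 50 such cells at a resolution of 0.5; bars are cluster levels, lines exact 95% Poisson intervals, and labels give the 2 leading genes and the number of cells. Cd34 and Msln peak in cluster M at 141 and 262 CPM, Plac8 in clusters J and N, and Hopx in clusters J, M and G.

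Free RNA in droplets can give UMIs in cells that do not express a gene, so the lowest shares by cluster at a resolution of 0.5 in H3R26C 5-Aza cells are given as a limit. In the cluster led by Colec10 and Pi16 (560 cells, median 13029 UMIs) Msln was in 0.357% of thinned cells and Hopx in 7.68%, against 45.2% and 80.8% in the Msln and Cd34 cluster (median 13441 UMIs). Cd34 was in 0 of 68 cells led by Cdc20 and in 0.922% of the Slpi, Trf and Plac1 cluster (median 12524 UMIs), against 45.5% of the Msln and Cd34 cluster. Plac8 was in at least 16.9% of each cluster with at least 50 such cells, the lowest being the skeletal muscle-like cluster led by Ttn and Neb (59 cells, median 12550 UMIs). A share at or below these values cannot be told apart from free RNA. No doublets were removed.

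Skeletal muscle-like cells also held Msln. They formed 2 clusters, one led by Myog and Mylpf in which 11 of the 13 listed muscle markers passed the marker criterion, and one led by Ttn and Neb in which 12 of 13 did. A marker passed with a log2 ratio of at least 2 to the other clusters and a UMI in at least 25% of the cells. Msln was at 32.3 CPM (28.4 to 36.7) in the 339 H3R26C 5-Aza cells of the first and at 70.3 (52.8 to 91.7) in the 59 of the second. In H3WT 5-Aza it was at 5.14 (2.81 to 8.63) in 153 cells and at 22.5 (13.1 to 36.0) in 55 cells, the highest of the H3WT 5-Aza clusters. After thinning, Msln was in 4 of these 153 and 5 of these 55 cells. The H3WT 5-Aza cell with most Msln, at 14 UMIs or 13.6% of the Msln UMIs of its library, was in neither of these clusters. Cd34 had 0 UMIs in these 55 H3WT cells, with an upper 95% limit of 4.87 CPM, and stood at 15.6 CPM (8.07 to 27.3) in the 59 H3R26C cells. The whole libraries had 4.90 and 16.6 CPM, and after thinning 1 of these 59 cells held Cd34. Whether free RNA gave these Cd34 UMIs was not tested. Plac8 and Hopx were below their library levels in both muscle-like clusters of both 5-Aza libraries, with Plac8 at 119 and 46.9 CPM and Hopx at 53.3 and 56.0 CPM in H3R26C 5-Aza.

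The genotypes could also be compared within a cluster. In the Crabp1 and Slpi cluster, H3R26C 5-Aza against H3WT 5-Aza cells (3843 and 1215) had Cd34 at 23.6 and 4.69 CPM, Msln at 35.7 and 1.56, Plac8 at 420 and 213, and Hopx at 176 and 57.1. None of these intervals overlapped, but the cells of this cluster differed by genotype. At a resolution of 0.5, the cluster led by Crabp1 and Crip1 held 2824 H3R26C and 186 H3WT 5-Aza cells, one led by Scg2 and Apoe 489 and 2119, and the Msln and Cd34 cluster 354 and 1. In the first of these Cd34 was at 12.8 CPM (11.7 to 13.9) in H3R26C and 15.3 (11 to 20.6) in H3WT cells, and in the second at 4.89 (3.3 to 6.98) and 3.74 (3.06 to 4.52), so that the Cd34 difference between genotypes was not held in either. Plac8 and Hopx were higher in H3R26C cells of both, with Hopx at 147 and 39.8 CPM in the first and 62.5 and 39.2 in the second. Msln was also higher in H3R26C cells of both. In the second, however, very few cells held Msln, and its level there cannot be told apart from free RNA. In the cluster led by Colec10 and Fosb (644 and 3530 cells) the genotypes were closer, with Cd34 at 5.90 (4.38 to 7.77) and 4.65 (4.06 to 5.30), Hopx at 18.0 (15.3 to 21.1) and 14.4 (13.4 to 15.5), Plac8 at 158 (150 to 167) and 89.7 (87.0 to 92.4), and Msln at 1.65 (0.903 to 2.77) and 0.189 (0.0866 to 0.359). There the intervals overlapped for Cd34 and Hopx and not for Plac8 and Msln. Msln had 14 and 9 UMIs in these cells, which cannot be told apart from free RNA. Hopx was in 46 of the 644 and 197 of the 3530 cells after thinning. The lowest Hopx share given above comes from a cluster of H3R26C 5-Aza cells also led by Colec10. It therefore sets no separate limit for these cells, and none for those of H3WT. Whether free RNA gave the Hopx UMIs of this cluster was not tested.

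Levels also moved with the cell cycle phase score, most for Msln. In H3R26C 5-Aza, Msln was at 16 CPM (15.1 to 17.0) in cells scored G1, 65.7 (62.3 to 69.2) in S and 55.3 (52.1 to 58.7) in G2M. Plac8 was highest in G1, at 457 CPM, with 258 in S and 224 in G2M, while Hopx was at 213, 274 and 197 and Cd34 at 13.3, 25.1 and 18.6. In H3WT 5-Aza, Msln was at 0.852 (0.644 to 1.11) in G1, 1.94 (1.23 to 2.91) in S and 3.54 (2.27 to 5.26) in G2M. The median depth of H3R26C 5-Aza cells was 12316.5 UMIs in G1, 14371 in S and 18621.5 in G2M, and the part of depth in the phase scores was not tested. Among cells scored G1 the ratio of Cd34 and Msln was 4.48, with 52 cells.

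**Figure D5:**
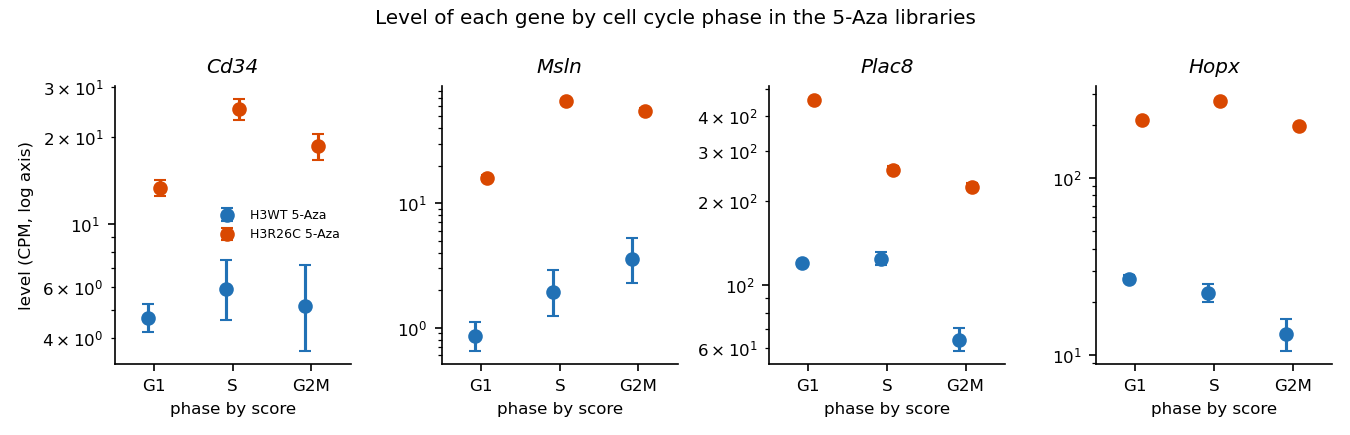
Level of each gene (CPM, a separate log axis for each gene) by cell cycle phase score in H3WT 5-Aza and H3R26C 5-Aza cells; points are levels and bars exact 95% Poisson intervals. Msln is lowest in G1 in both libraries, at 0.852 and 16 CPM, and Plac8 in H3R26C 5-Aza is highest in G1, at 457 CPM.

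Genes most like each member were taken as the 5 with the highest ratio between H3R26C 5-Aza cells with and without it, among genes with at least 50 CPM in the cells with it. For Cd34 they were Msln (156 against 18.8 CPM), the interleukin 33 receptor gene Il1rl1 (93.8 against 18.2), Slurp1, a secreted Ly6 family protein (66.7 against 14.1), the Fc receptor gamma chain gene Fcer1g (65.7 against 14.7) and Xlr (51.0 against 13.8). For Msln they were Slurp1 (109 against 9.32 CPM), Cd34 (72.3 against 11.3), Nefl (66.1 against 10.3), Il1rl1 (96.9 against 16.2) and Areg, an EGF receptor ligand (50 against 9.18). Slurp1 and Il1rl1 stood in both lists, and Cd34 and Msln each in the list of the other. For Plac8 they were the protease inhibitor gene Slpi (495 against 141 CPM), the autotaxin gene Enpp2 (340 against 122), the retinol saturase gene Retsat, Trp63 and the heparanase gene Hpse. For Hopx they were Wnt10a (60.6 against 8.47 CPM), Enpp2 (423 against 95.1), Cst6, Tpd52 and Cpq. Plac8 and Hopx shared Enpp2. In H3WT 5-Aza none of these genes was among the 5 of the same member. That is a cut-off by rank, and a gene outside the 5 can still be higher in the cells with the member. Slurp1 was at 100 CPM in the 20 cells with Msln and no Cd34 and at 2.66 in those with neither. Slpi was at 250 CPM in cells with Plac8 and no Hopx, against 169 in the whole library. Fcer1g went the other way, at 0 CPM in the 110 cells with Cd34 and no Msln and 11.5 in those with neither. Slpi stood in the Hopx list (460 against 149 CPM), and the muscle gene Myom2 led the Msln list (1152 against 17.3 CPM).

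Gene lists, chosen with earlier results known, described the cells that hold each gene. Cells were compared on genes with at least 10 CPM in cells with or without the gene. Between cells with and without Msln, 2.41% of 9041 genes were at least 2-fold higher and 3.55% at least 2-fold lower, with a median log2 ratio near 0. Of 11 skeletal muscle genes that passed, 6 were at least 2-fold higher in Msln cells, among them titin (Ttn, 1557 against 540 CPM) and embryonic myosin (Myh3, 218 against 66.1), and none was lower. This did not hold for the Msln cells that also held Cd34. Ttn was at 1964 CPM in the 454 cells with Msln and no Cd34, at 135 in the 130 with both and at 547 in those with neither. Myog was at 127, 16.9 and 64.2 CPM in the same order. Of 8 DNA replication genes, 5 were at least 2-fold higher, such as Mcm5 (32.2 against 13.2 CPM), and of 9 adventitial progenitor genes 5 were at least 2-fold lower, such as Pi16 (6.51 against 39.5 CPM). Of 7 adipocyte genes 4 were at least 2-fold lower in Msln cells, and of 8 mitosis genes 2, Top2a and Bub1, were at least 2-fold higher. In H3WT 5-Aza all 11 muscle genes that passed were at least 2-fold higher in the 21 Msln cells, where 15.3% of all genes were. Their median depth before thinning was 16839 UMIs against 13147 in the other cells.

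Cells with Plac8 and cells with Hopx had less muscle RNA. Between cells with and without Plac8, 0.26% of 8855 genes were at least 2-fold higher and 0.757% at least 2-fold lower, and all 11 muscle genes that passed were lower, with a median of -1.45. For Hopx, 0.796% of 8921 genes were at least 2-fold higher and 2% lower, and all 11 muscle genes were again lower, with a median of -1.64. Hopx cells were also lower for 5 of 7 adipocyte genes, such as the lipase gene Lpl (37.0 against 109 CPM). They were lower for 2 of 9 adventitial progenitor genes, Pi16 and Col15a1, and for 2 of 4 smooth muscle and SRF target genes, Tagln and Myl9. This was not particular to Hopx, since Tagln was also lower in Msln cells (2.40 against 12.6 CPM). Hopx cells were higher for the keratin gene Krt8 (28.1 against 7.31 CPM). Plac8 cells were lower for 1 of 7 adipocyte genes, Adipoq (5.60 against 16.1 CPM), had Lpl at 89.3 against 63.6, and were lower for Krt8 (8.15 against 25.8 CPM). In H3WT 5-Aza the muscle genes had medians of -1.73 for Plac8 and -1.38 for Hopx, with all genes near 0. The adipocyte genes, however, had a median of 0.151 for Hopx there, against -1.09 in H3R26C 5-Aza. Between cells with and without Cd34, 0.993% of 8966 genes were at least 2-fold higher and 1.56% lower. Of the lists, 4 of 7 adipocyte genes and 1 gene each of the muscle, mesothelial and progenitor lists, Ttn, Krt8 and Thy1, were lower in Cd34 cells, and none was higher.

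Known partners of the 4 genes were few among the genes that passed the filter on low values. The mesothelin ligand gene Muc16 had 0 UMIs in every library, and the paralogue Mslnl, whose annotated end lies 283 bases from Msln, was at 0.0361 to 0.0476 CPM. The CD34 relatives Podxl and Podxl2 were at 0.28 and 0.524 CPM in H3R26C 5-Aza, and the adaptor gene Crkl was at 26.2 CPM in Cd34 cells and 19.7 in the others. Cebpb, a reported target of PLAC8, was at 420 CPM in Plac8 cells and 324 in the others. The HOPX partner genes Srf (12.3 against 14.1 CPM) and Hdac2 (132 against 131) differed by less than 2-fold between cells with and without Hopx. Of the partner lists 2 genes passed for Cd34, 0 for Msln, 1 for Plac8 and 4 for Hopx, and 0 of them were at least 2-fold higher or lower in the cells holding the corresponding gene. With the background shares above, so few genes allow no statement about the lists.

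Markers of mesothelium, endothelium and blood were mostly low or absent, whereas those of adventitial progenitors other than Dpp4 were present in all 4 libraries. The mesothelial list without Msln summed to 20.1 CPM in H3R26C 5-Aza against 0.381 to 2.42 in the other libraries, of which Krt8 made 14.9, and the defining genes Wt1, Muc16 and Gpm6a were at 0 in all 4 libraries. Of the endothelial list, which summed to 10.1 to 16 CPM, Cdh5 was at 5.39 CPM and Pecam1 at 0.912 in H3R26C 5-Aza. Of the blood list, which summed to 4.24 to 13 CPM, Kit was at 0 in all libraries and Ptprc at 1.26 CPM in H3R26C 5-Aza. The adventitial progenitor list without Cd34 summed to 1933 to 2972 CPM, with Ly6a at 578 to 1582 CPM, Pi16 at 34.8 to 105 and Dpp4 at 0 in 3 libraries.

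The neighbours of the 4 genes on their chromosomes gave 1 further value. Spink2, the next protein-coding gene after Hopx at a distance of 89986 bases, was at 0.0115, 0.344, 0.0476 and 9.76 CPM in H3WT DMSO, H3WT 5-Aza, H3R26C DMSO and H3R26C 5-Aza. The 4 libraries had the same order for Spink2 as for Hopx, although both DMSO values rest on few UMIs. Thegl, on the other side of Hopx, was at 0 in 3 libraries and at 0.0271 CPM in H3R26C 5-Aza, and Cops4 and Coq2, next to Plac8, were at 78.8 and 46.4 CPM in H3R26C 5-Aza against 64.9 and 31.1 in H3WT 5-Aza. Plxna2, before Cd34, was lower in H3R26C 5-Aza than in H3WT 5-Aza, at 37.6 and 74.6 CPM, and Cd46, after it, was at 1.22 and 1.54. The antisense gene Hopxos overlaps Hopx and was at 0.786 CPM in H3R26C 5-Aza. Whether the counting used strand is not given in the sources used here, so reads of the overlap cannot be assigned with certainty.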

How the data were processed

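Single cell RNA-seq libraries of H3WT and H3R26C mesenchymal progenitor cells, 1 for each of 4 conditions, were read from the UMI count matrices that the authors deposited. Per the file headers and the study's methods the authors made these counts with Cell Ranger 6.1.0 and the mm10 genome. From them, cells with at least 5000 UMIs, at least 1500 genes and at most 20% mitochondrial UMIs were kept, which were 22049 of 39891 barcodes, and no doublets were removed. The 4 genes and all gene lists were chosen with earlier results of these data known.

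Levels are CPM scaled by all UMIs, and log2 ratios use a pseudocount of 1 CPM. Shares and co-detection were computed after thinning each cell to 5000 UMIs. With 1 library per condition no test was run. For counts the 95% intervals are exact Poisson ones, for shares exact binomial ones (Clopper-Pearson), and neither covers more than counting error. For the 0 thinned DMSO cells with Msln the share that 3 cells would make is given, and other limits on a count of 0 come from the exact intervals. Clustering used Seurat 5.3.0 in R 4.3.3 with SCTransform, cell cycle scores regressed out, 20 principal components and a resolution of 0.2, with 0.5 as an alternative. The study used Seurat 4, so the clusters may differ from those of the study. Beside the 4 genes, the genes named were the listed markers, the 5 genes most like each member and the protein-coding neighbours, and further examples were chosen after their values were seen. Other computations used Python 3.11.15, numpy 2.4.6 and scipy 1.17.1, and the scripts were tested on simulated data.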

Additional observations from a re-analysis of the deposited data

Results flagged for a closer look

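Barcodes left out by the cell filter also held the 4 genes, and took no part in the comparisons above. There were 2529 such barcodes in H3WT DMSO, 9009 in H3WT 5-Aza, 1813 in H3R26C DMSO and 4491 in H3R26C 5-Aza, with medians of 705 to 978 UMIs. In the left-out barcodes of H3R26C 5-Aza, Cd34 was at 14.7 CPM (12.0 to 17.8), Msln at 31.7 (27.7 to 36.2), Plac8 at 190 (180 to 200) and Hopx at 83.7 (77.1 to 90.7). In those of H3WT 5-Aza, Msln was at 3.72 CPM (2.57 to 5.20) and Plac8 at 75.0 (69.5 to 80.9). These values are the ones whose intervals lay above those of both DMSO libraries, so nothing is read from that position. The left-out barcodes of H3WT DMSO and H3R26C DMSO held 0 UMIs of Cd34 and Msln. Plac8 was at 4.27 and 4.46 CPM there, and Hopx at 2.95 and 9.90 CPM. The H3WT 5-Aza values of Cd34, 2.62 CPM (1.68 to 3.91), and Hopx, 17.6 CPM (15 to 20.5), were not set apart in this way. Their intervals overlapped those of H3R26C DMSO, with upper limits of 1.83 and 15.3 CPM. In H3R26C 5-Aza the levels of Cd34 and Msln were close to those of the kept cells, 16.6 and 32.8 CPM, while Plac8 and Hopx were below theirs, 376 and 222 CPM. In H3WT 5-Aza, Msln in the left-out barcodes was above the kept cells, which had 1.22 CPM (0.997 to 1.48). The Msln difference between the genotypes after 5-Aza was thus smaller among left-out barcodes than among kept cells. Whether these UMIs come from small cells or from free RNA was not tested.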

How the results depend on the processing

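No paired analysis was possible because there is a single library of every condition, and for the same reason no replicate could be left out. Of the values recomputed under other settings, 78 differed by less than their counting interval or 1.5-fold for counts, 54 moved further and 2 reversed. The log2 ratio of H3R26C 5-Aza to H3WT 5-Aza stayed above 0 for all 4 genes under every setting run. A pseudocount of 5 CPM gave 1.12 for Cd34, 2.60 for Msln and 2.91 for Hopx, and 0.1 CPM gave 4.64 for Msln. Plac8 was at 1.73 with median-of-ratios size factors and with the stricter cell filter, and Hopx at 3.16 as a mean of per-cell CPM. The ratio of shares between these libraries was 1.97 for Plac8 and 4.92 for Hopx, 1.64 and 3.33 without thinning, and 2.27 and 5.94 when thinned to fewer UMIs. Without thinning, the co-detection ratio was 2.89 for Cd34 and Msln, 0.963 for Msln and Plac8 and 1.35 for Msln and Hopx. With the stricter cell filter and thinning to more UMIs, Cd34 and Msln had 3.23. From 2 UMIs on, the ratios were 5.49 for Cd34 and Msln, 1.37 for Cd34 and Plac8, 1.71 for Cd34 and Hopx, 0.991 for Msln and Plac8 and 1.71 for Msln and Hopx. In G1 cells Plac8 and Hopx had 1.13. Of the settings chosen after seeing the data, 5 UMIs gave 17.8 for Cd34 and Msln, 2.70 for Cd34 and Hopx, 2.31 for Msln and Hopx, 1.38 for Plac8 and Hopx and, on the other side of 1, 0.946 for Cd34 and Plac8. Leaving out the cluster led by Msln and Cd34 gave 2.45 for these genes, 1.15 for Cd34 and Hopx and 0.68 for Msln and Plac8, and taking products within clusters at a resolution of 0.2 gave 1.31 for Msln and Hopx. Products within clusters at a resolution of 0.5 gave 1.48 for Cd34 and Msln, 1.06 for Cd34 and Plac8, 1.13 for Cd34 and Hopx, 1.08 for Msln and Hopx and 1.02 for Plac8 and Hopx. Without the cluster led by Crabp1 and Slpi the ratios were 2.30 for Cd34 and Msln, 0.649 for Msln and Plac8, 1.31 for Msln and Hopx, 1.13 for Plac8 and Hopx and, on the other side of 1, 0.889 for Cd34 and Hopx. The highest cluster level depended on the clustering. It was 22.0 CPM for Cd34 and 1268 for Plac8 with the genes kept among the variable genes, 141 for Cd34 and 262 for Msln at a resolution of 0.5, and 37.0 for Cd34, 118 for Msln, 1199 for Plac8 and 698 for Hopx with log-normalization. Of the 5 genes most like each member, 3 stayed without thinning, and by Pearson correlation 3 stayed for Cd34 and Msln and 1 for Plac8 and Hopx. The cause of these changes was not tested.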
